A study of Homo sapiens with 32 samples.

Results

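The comparison described here set U2OS cells with the p53 change A347D on both alleles (HOM) against U2OS cells without p53 (KO), both given 20 µM etoposide for 24 h. The members were the 4 HOM and the 4 KO libraries that carry these labels, 8 of the 32 libraries of the series, and every gene that passed a filter on low values, 16449 of the 35587 gene symbols in the deposited matrix. U2OS is a human osteosarcoma line with wild-type p53, and the series made both genotypes from it with CRISPR-Cas9. Etoposide blocks topoisomerase II after it has cut DNA, which leaves breaks in both strands. HOM cells carry A347D on both alleles and no wild-type p53, KO cells carry no functional p53, and the cells called WT here are the unedited U2OS parent. All 3 groups received the same etoposide treatment, as did cells heterozygous for A347D (HET). The test of HOM against KO took its spread from all 16 etoposide libraries, those of WT and HET included. HOM, KO and WT cells with the solvent DMSO for 24 h served to show which differences were present without etoposide. Each group held 4 libraries from separate plates. How many edited lines represent a genotype is not stated, so genotype and line cannot be told apart, and the p-values measure the spread between plates. The comparison asks what the mutant protein does beyond the loss of p53.

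The tumour suppressor p53 is a transcription factor that binds DNA as a tetramer, a pair of dimers joined by a tetramerization domain near the C terminus. After DNA breaks it accumulates and raises genes for cell cycle arrest (CDKN1A), its own degradation (MDM2), apoptosis (BAX, BBC3, FAS) and DNA repair (DDB2, XPC). CDKN1A also leads, through the DREAM and RB complexes, to lower transcription of genes for mitosis and DNA replication. The residue A347 lies in that domain. By its title, the series concerns a mutant p53 that stays dimeric and promotes cell death at mitochondria without transactivation. At mitochondria p53 can meet the BCL2 family, which controls the permeability of the outer membrane.

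The 8 libraries held 20.35 to 22.5 M recovered counts, and 3 counts in a library, the least taken as measurable here, corresponded to 2.301 to 2.766 normalized counts. Across the series the totals were 18.25 to 24.19 M, apart from 8.051 M in HET library 2 with etoposide, HET being cells with 1 mutant allele. No 2 replicates of HOM or of KO with etoposide agreed within sampling noise. With etoposide, KO library 1 had counts in 20425 genes, and KO libraries 2 to 4 in 22144 to 22305. HOM library 4 with etoposide differed from HOM libraries 1 to 3 by a chi-square per degree of freedom of 11.52 to 24.3. Libraries 1 to 3 differed among themselves by 3.418 to 6.303. The HOM libraries with DMSO fell into library 1 and libraries 2 to 4. Library 1 differed from each of the other 3 by a chi-square per degree of freedom of 111.7 to 254.4, and those 3 differed among themselves by 18.97 to 54.75, so library 1 is the odd one of its group. Libraries 2 to 4 stood apart from the KO libraries instead: mtDNA-encoded genes took 12.46% to 21.92% of counts in the 4 HOM DMSO libraries, the lowest share in library 1, against 11.37% to 14.65% in KO with DMSO. Which of them represents HOM cells with DMSO cannot be told from these data. Values that use HOM in DMSO are given with library 1 alone, which is then taken to vary like the other groups, and counts also with all 4. The HOM libraries with etoposide had shares of 9.235% to 10.19%, and those of KO 9.17% to 12.43%, the highest in KO library 1. The 20 listed blood cell markers, of which 10 passed the filter, summed to 561.9 to 597.5 normalized counts in HOM cells and 519.5 to 568.8 in KO cells. The 28 listed matrix and osteoblast genes with counts, of which 26 were tested, summed to 86330 to 106900 in HOM cells and 102900 to 106700 in KO cells.

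In all, 1623 genes were higher in HOM than in KO cells (9.87%) and 938 were lower (5.70%), at an adjusted p under 0.05 in limma's moderated test (each ± beside a log2 difference is the SE of that fit) and a fold change of at least 1.5. WT cells against the same 4 KO libraries gave 2767 higher (16.8%) and 2226 lower (13.5%) genes. HOM against WT gave 2628 higher (16%) and 2649 lower (16.1%). The median log2 difference over all tested genes was 0.01 for HOM against KO. Scaling by library totals raised that median to 0.15 and gave 2392 higher and 588 lower genes, 80.3% higher among all calls in place of 63.4%, so the differences below are relative to the median gene. The 4 replicates did not overlap in 3083 genes with HOM higher (18.7%) and 3023 with HOM lower (18.4%). In bulk RNA a lower level can come from fewer cells with the transcript or from less of it per cell, which cannot be told apart.

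Most of the tested p53 targets did not pass between HOM and KO cells, while most passed between WT and KO cells. Of 105 listed targets tested, 17 were higher in HOM than in KO cells (16.2%, with 9.87% of all genes) and 3 were lower (2.86%, with 5.70%), and the median log2 difference was 0.14. Against the same KO libraries, WT cells were higher in 75 of the 105 (16.8% of all genes were) and lower in 6 (13.5%), with a median of 1.14. HOM cells were lower than WT cells in 75 and higher in 4. With other scalings 13 to 22 targets were higher in HOM than in KO cells, and the variance-stabilized values as deposited, which shrink differences of low genes, gave 10; each gave 3 lower.

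**Figure D1:**
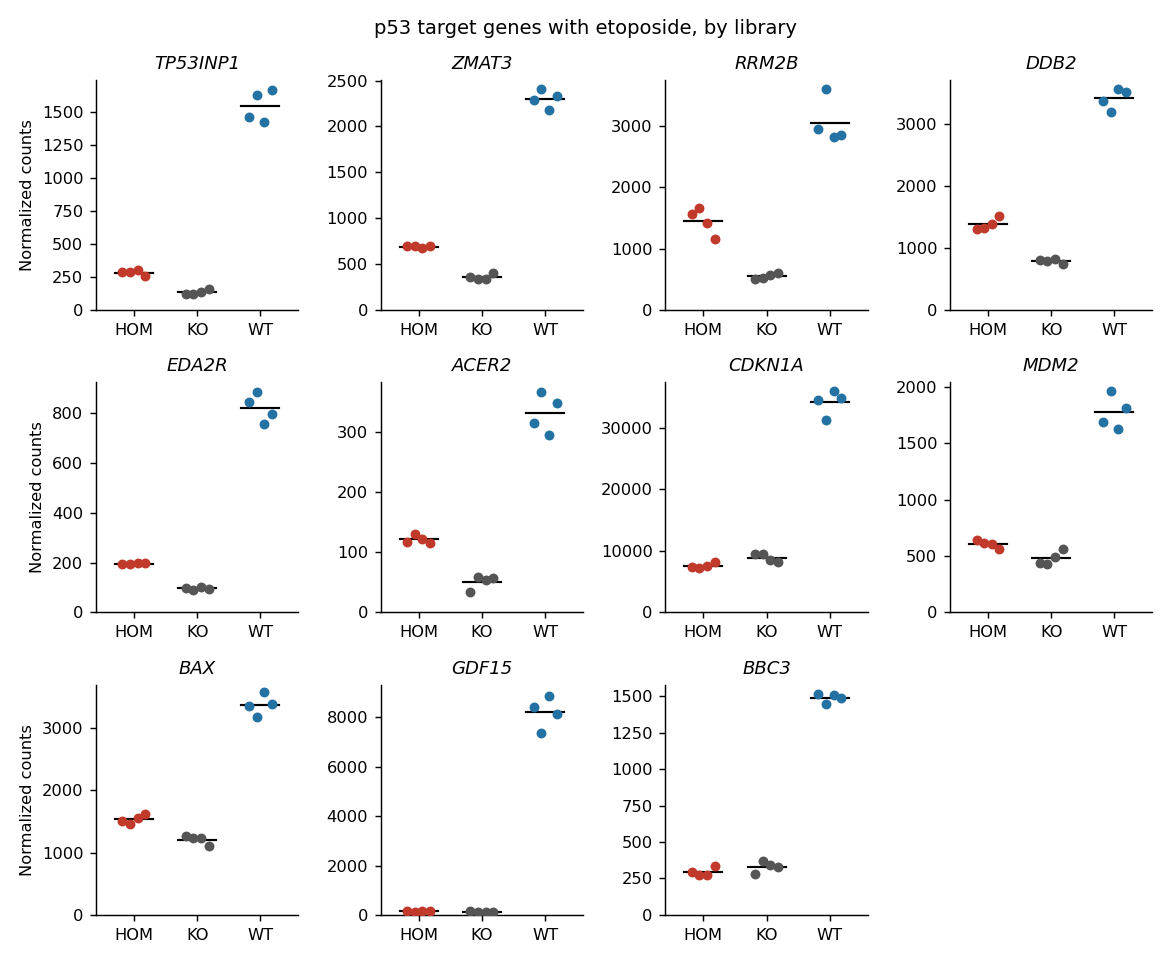
Normalized counts of 11 p53 target genes in each library with etoposide (points) with the group mean (line), for HOM, KO and WT cells; the y axes start at 0. TP53INP1, ZMAT3, RRM2B, DDB2, EDA2R and ACER2 lay above KO in all 4 HOM libraries, while CDKN1A lay below KO, and WT lay above both in the 11 targets.

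None of the 10 cell cycle arrest genes passed in either direction. With an unadjusted p under 0.05 in limma, 2 were higher and 5 lower in HOM cells, each by less than 1.5-fold. CDKN1A, the gene of the kinase inhibitor p21, had 7369, 7160, 7469 and 8105 in HOM cells, against 9428, 9433, 8479 and 8159 in KO cells, in normalized counts of libraries 1 to 4 with etoposide, the order and unit of such values below. The HOM libraries were all below the KO libraries, by a small margin (-0.24 ± 0.067 on the log2 scale, adjusted p 0.00807, under the fold threshold). WT cells reached 34110 ± 2041 (SD, n = 4). With DMSO, CDKN1A had 2019 normalized counts in HOM library 1 and a mean of 3063 in KO cells, so that it was higher with etoposide than with DMSO by 1.90 in HOM and 1.53 in KO cells on the log2 scale, a difference of 0.36 ± 0.17 (adjusted p 0.379). With all 4 HOM DMSO libraries the difference was -0.20, of the other sign and not past the threshold either.

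Among the 10 genes that feed back on p53, 2 were higher in HOM cells (20%, with 9.87% of all genes) and none lower. ZMAT3 (chr3:179017223-179072279), an RNA-binding protein that p53 raises, had 702, 695.5, 672.6 and 692.2 in HOM cells, against 363.2, 334.3, 339.3 and 397.6 in KO cells. The HOM libraries were tightly grouped above all KO libraries (0.95 ± 0.057, adjusted p 3.15e-10), and WT cells had 2303 ± 94.3. TP53INP1, a nuclear protein that promotes p53 phosphorylation, had 290.5, 284, 305.2 and 255.1 in HOM cells, against 118.9, 120.7, 139.6 and 157.2 in KO cells. The groups did not overlap (1.08 ± 0.087, adjusted p 1.25e-08), while WT cells had 1545 ± 119. The ubiquitin ligase MDM2, which degrades p53, had 642.6, 616.8, 602.8 and 560.4 in HOM cells, against 434.2, 429.8, 490.3 and 562.4 in KO cells. HOM library 4 lay within the KO range, and MDM2 did not pass the fold threshold (0.34 ± 0.087, adjusted p 0.00342).

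No gene of the 15 apoptosis targets passed, and their log2 differences were -0.32 to 0.46. With an unadjusted p under 0.05 in limma, 6 were higher and 1 lower in HOM cells. BAX, which permeabilizes the outer mitochondrial membrane, had 1499, 1466, 1557 and 1626 in HOM cells, against 1261, 1233, 1227 and 1100 in KO cells. All HOM libraries were above all KO libraries, by 0.35 ± 0.057 (adjusted p 6.38e-05), which is under 1.5-fold, and WT cells had 3369 ± 162. With DMSO and HOM library 1 alone, BAX differed by 0.47. BBC3, the BH3-only protein PUMA, had 292, 275.9, 270.7 and 332.5 in HOM cells, against 277.5, 372.5, 343.4 and 330.4 in KO cells, with overlapping groups (-0.17 ± 0.083, adjusted p 0.102). The death receptor FAS (0.19 ± 0.11, adjusted p 0.18) and the BH3-only gene PMAIP1 (-0.03 ± 0.10, adjusted p 0.838) overlapped as well. GDF15, a secreted stress cytokine, had 147.2, 130.7, 148 and 160.7 in HOM cells, against 141.1, 120.7, 106.3 and 119.4 in KO cells. HOM library 2 lay below KO library 1 (0.27 ± 0.087, adjusted p 0.0178), and both groups were far below WT cells at 8205 ± 639.

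Of 10 targets for DNA repair and nucleotide supply, RRM2B and DDB2 were higher in HOM cells (20%, with 9.87% of all genes) and none was lower. RRM2B, the p53-inducible subunit of ribonucleotide reductase, had 1565, 1668, 1423 and 1151 in HOM cells, against 511.7, 523.6, 567.4 and 610.3 in KO cells. It showed the largest difference among all tested targets (1.38 ± 0.10, adjusted p 4.75e-09), with the lowest HOM library well above the highest KO library. DDB2, which recognizes ultraviolet damage in nucleotide excision repair, had 1311, 1322, 1384 and 1511 in HOM cells, against 803, 793.6, 827.2 and 744.8 in KO cells (0.80 ± 0.058, adjusted p 3.29e-09). WT cells had 3054 ± 368 for RRM2B and 3418 ± 168 for DDB2 (SD, n = 4).

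Of 16 metabolic and redox targets, 4 were higher (25%, with 9.87% of all genes) and 1 lower (6.25%, with 5.70%). SCO2, an assembly factor of cytochrome c oxidase, had 391, 442.3, 423.4 and 535.7 in HOM cells, against 168.7, 286.5, 224.9 and 222.8 in KO cells, and the HOM libraries reached the level of WT cells, 429.1 ± 39.2. Its difference from KO was 1.0 ± 0.13 (adjusted p 5.16e-06), and from WT 0.06 ± 0.13 (adjusted p 0.723). SESN1, a regulator of the growth kinase complex mTORC1, was higher by 0.59 ± 0.095 (adjusted p 6.39e-05), just past the threshold, and leaving out any of HOM libraries 1, 2 or 3 or KO libraries 1 or 2 took it under 1.5-fold (0.54 to 0.58). LIF, a cytokine of the interleukin-6 family, was lower, with 675.1, 620, 599.8 and 645.4 in HOM cells, against 1116, 1320, 1139 and 1231 in KO cells. These groups did not overlap (-0.92 ± 0.068, adjusted p 4.48e-09), and WT cells had 2636 ± 193. With DMSO and HOM library 1 alone, the differences of SCO2, SESN1 and LIF from KO were 0.83, 0.23 and 0.21. GLS2, a mitochondrial glutaminase, had 7.914, 7.304, 12.27 and 10.2 in HOM cells, against 2.766, 3.473, 8.118 and 8.407 in KO cells, with overlap and with 47 recovered counts in all in HOM and 27 in KO cells. Leaving out HOM library 3 or KO library 1 or 2 ended its call (0.61, 0.50 and 0.58 on the log2 scale).

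The remaining 44 targets, secreted, membrane and other proteins, held 9 higher (20.5%, with 9.87% of all genes) and 2 lower genes (4.55%, with 5.70%). ACER2, an alkaline ceramidase of the Golgi, had 117.9, 129.8, 122.7 and 115.6 in HOM cells, against 33.19, 58.17, 54.39 and 57.17 in KO cells (1.28 ± 0.14, adjusted p 5.5e-07). EDA2R, a receptor of the tumour necrosis factor family, had 195.5, 194, 196.3 and 197.3 in HOM cells, against 98.64, 89.43, 100.7 and 95.84 in KO cells. The HOM libraries were nearly identical and lay above all KO libraries (1.02 ± 0.064, adjusted p 5.43e-10). RPS27L, a ribosomal protein paralog that p53 raises, had 1534, 1624, 1301 and 1099 in HOM cells, against 655.5, 721.5, 774.4 and 831.4 in KO cells (0.89 ± 0.12, adjusted p 9.36e-06); reads shared with RPS27 could be split between both genes. The zinc finger gene ZNF79 was higher by 0.71 ± 0.12 (adjusted p 7.92e-05). CYFIP2, a subunit of the actin-regulating WAVE complex, was lower, with 281.8, 296.2, 316.8 and 363.9 in HOM cells, against 532.9, 605.2, 557.7 and 553.2 in KO cells (-0.84 ± 0.075, adjusted p 5.32e-08), and WT cells had 4693 ± 264. With DMSO and HOM library 1 alone, the differences of ACER2, EDA2R, RPS27L, ZNF79 and CYFIP2 were 0.06, 0.71, 0.61, 0.69 and -0.62.

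The myeloid receptor gene TREM2 had 7 recovered counts over the 4 HOM libraries and 1 over the 4 KO libraries, so no fold is given although it counts among the 9; WT cells had 1210 ± 137 normalized counts. Among the other targets that passed, NOTCH1 was higher by 0.70 ± 0.11 and the ubiquitin ligase subunit FBXO22 by 0.63 ± 0.069, with adjusted p of 6.53e-05 and 7.64e-07. The call of NOTCH1 ended without HOM library 4 (0.58) and that of FBXO22 without KO library 1 (0.57). The others, INPP5D, ABCA12 and WDR63, had group means of 14.07, 15.5 and 27.02 normalized counts in HOM cells, against 7.855, 7.508 and 17.01 in KO cells. The call of WDR63 ended without HOM library 1 or 2 or KO library 3 or 4 (0.52, 0.65, 0.56 and 0.48).

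To see what the targets above KO share in sequence, promoter windows of 300 bases from RefSeq (GRCh38.p14, 250 bases before to 50 after the start) were searched for the p53 response element. A match had 20 bases, C and G at the core positions of both half-sites (CNNG) and at most 3 mismatches to the p53 consensus, which reads the same on both strands. It was found in 288 of 27305 promoters (1.05%) and in 9 of the 88 tested targets with a promoter in the table (10.2%). The 9 matches follow, 5′ to 3′ on the gene's strand with the CNNG cores in capitals, because they show that matches of like quality stood in targets that did and did not differ from KO.
RPS27L: ggcCTAGagcagaCAAGccc
GLS2: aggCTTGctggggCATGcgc
AEN: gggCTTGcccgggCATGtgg
FDXR: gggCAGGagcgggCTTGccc
GDF15: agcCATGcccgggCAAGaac
GPX1: gggCCAGaccagaCATGcct
PMAIP1: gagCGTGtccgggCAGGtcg
DCP1B: gggCAGGcctgggCTTGtcg
TGFA: gggCAGGccctgcCTAGtct

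Of the 12 targets above KO with a promoter in the table, 2 held a match (16.7%), RPS27L and GLS2. Of the 75 that did not pass, 7 held one (9.33%). The RPS27L match lay at position -69 from the start site (chr15:63157527-63157546, minus strand) with 3 mismatches, and that of GLS2 at position 30 with 2. AEN, an apoptosis-enhancing nuclease whose match at position -34 had 2 mismatches, differed by 0.39 ± 0.052 between HOM and KO cells (adjusted p 6.2e-06), under the fold threshold. GDF15, whose match at position 29 had 3 mismatches, differed by 0.27 between HOM and KO cells and by 6.07 between WT and the same KO cells. FDXR, a mitochondrial ferredoxin reductase, had 0.39 and 2.71 in these comparisons, and RPS27L 0.89 and 2.33. The 250 bases before the RPS27L start (chr15:63157478-63157727, minus strand) are printed with the whole match in capitals, since this target had both a match and a difference without overlap.
RPS27L upstream: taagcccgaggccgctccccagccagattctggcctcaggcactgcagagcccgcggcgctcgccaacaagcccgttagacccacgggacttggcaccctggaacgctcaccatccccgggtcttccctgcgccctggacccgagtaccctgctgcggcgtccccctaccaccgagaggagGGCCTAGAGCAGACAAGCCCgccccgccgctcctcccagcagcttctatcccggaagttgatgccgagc

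The wider set of etoposide-induced genes was then examined. Etoposide raised 3389 genes in WT cells against WT cells with DMSO (20.1% of those tested) and lowered 2501 (14.9%). Of these, 765 were at least 4-fold higher, a set chosen on WT libraries only. Of the 761 tested in etoposide, 209 were higher in HOM than in KO cells (27.5%, with 9.87% of all genes) and 66 lower (8.67%, with 5.70%), and the median log2 difference was 0.27. WT cells were higher than the same KO cells in 462 and lower in 28 (16.8% and 13.5% of all genes were). The set was chosen for high values in these same WT libraries, which favours WT above KO, so no conclusion is drawn from that count. Without the listed p53 targets, 727 genes remained, of which 198 were higher and 66 lower in HOM cells. The count depended on the values used: 113 higher and 32 lower with the variance-stabilized values as deposited, and 156 and 90 after quantile normalization, where the median was 0.06.

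The largest rises in this set were in TCEAL7, SPANXC and INSL4, described below, and in 5 others. KBTBD8, an adaptor of a cullin ubiquitin ligase, had 88.64, 75.47, 74.39 and 53.57 in HOM cells, against 16.59, 6.946, 6.494 and 3.363 in KO cells (3.15 ± 0.30, adjusted p 1.47e-07). CSTA, the protease inhibitor cystatin A, had 98.93, 107.1, 82.83 and 84.18 in HOM cells, against 18.44, 10.42, 16.24 and 14.29 in KO cells (2.59 ± 0.19, adjusted p 3.43e-09). The transcription factor genes TBX21 (2.88 ± 0.38) and NHLH2 (2.81 ± 0.34) and the adaptor gene BLNK (2.6 ± 0.34) had 20, 7 and 5 recovered KO counts in all, with adjusted p of 7.56e-06, 2.06e-06 and 6.35e-06. Falls were led, beside SERPINB5 and ANXA8L1 below, by epidermal genes. KRTAP2-3, a keratin-associated protein, had 57.77, 53.56, 59.82 and 66.33 in HOM cells, against 396.4, 317.8, 332 and 272.4 in KO cells (-2.44 ± 0.11, adjusted p 5.66e-12). ANXA8, an annexin that shares nearly all its sequence with ANXA8L1, differed by -2.36 ± 0.098, the keratin KRT6A by -2.45 ± 0.23 and the gasdermin GSDMA by -2.33 ± 0.27 (adjusted p 1.71e-12, 1.27e-07 and 1.17e-06). SPINK6, a protease inhibitor of the skin, was lower at 8 recovered counts in HOM and 61 in KO cells, and FAM83H varied within both groups, its call ending without HOM library 2 or KO library 1 or 3 (-1.65, -1.73 and -1.78).

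Of 131 tested genes that fell at least 4-fold in WT cells with etoposide, 17 were higher in HOM than in KO cells (13%, with 9.87% of all genes). In 22 of them HOM cells were lower (16.8%, with 5.70% of all genes), and the median was -0.11. Few genes of cell division, which p53 lowers through CDKN1A, passed between HOM and KO cells. Of 46 genes of G2 and mitosis, 1 was higher and 1 lower in HOM cells (2.17% each, with 9.87% and 5.70% of all genes), with a median of 0.04. In WT cells 45 of the 46 were lower than in the same KO cells (13.5% of all genes were), with a median of -1.49. Of 45 S-phase genes 3 were lower in HOM cells (6.67%, near the 5.70% of all genes), with a median of -0.06, and 42 were lower in WT cells (median -1.26). Of 31 genes of homologous recombination and the Fanconi pathway 1 was lower in HOM (3.23%) and 25 in WT cells.

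The mitotic kinesin KIF20A had 2681, 2789, 3059 and 2755 in HOM cells, against 1762, 1640, 1793 and 1506 in KO cells (0.75 ± 0.066, adjusted p 4.23e-08), with WT cells at 1052 ± 25.3. NUSAP1, a microtubule-binding protein of the spindle, differed by -0.60 ± 0.11, a call that ended without HOM library 4 or KO library 1 (-0.50 and -0.51). Of the S-phase genes, CHAF1A, a subunit of the chromatin assembly factor, had 1122, 1040, 1012 and 1122 in HOM cells, against 1906, 1875, 1880 and 1965 in KO cells (-0.83 ± 0.053, adjusted p 7.79e-10). UHRF1, which couples DNA methylation to replication, differed by -0.81 ± 0.07 (adjusted p 3.5e-08). RFC3, a subunit of the sliding clamp loader, differed by -1.0 ± 0.099 (adjusted p 1.86e-07) and BRCA2 by -0.61 ± 0.12 (adjusted p 0.000397), and both genes lie on chromosome 13, where most genes were lower. The call of BRCA2 ended without HOM library 4 or KO library 3 or 4 (-0.52, -0.56 and -0.52).

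**Figure D2:**
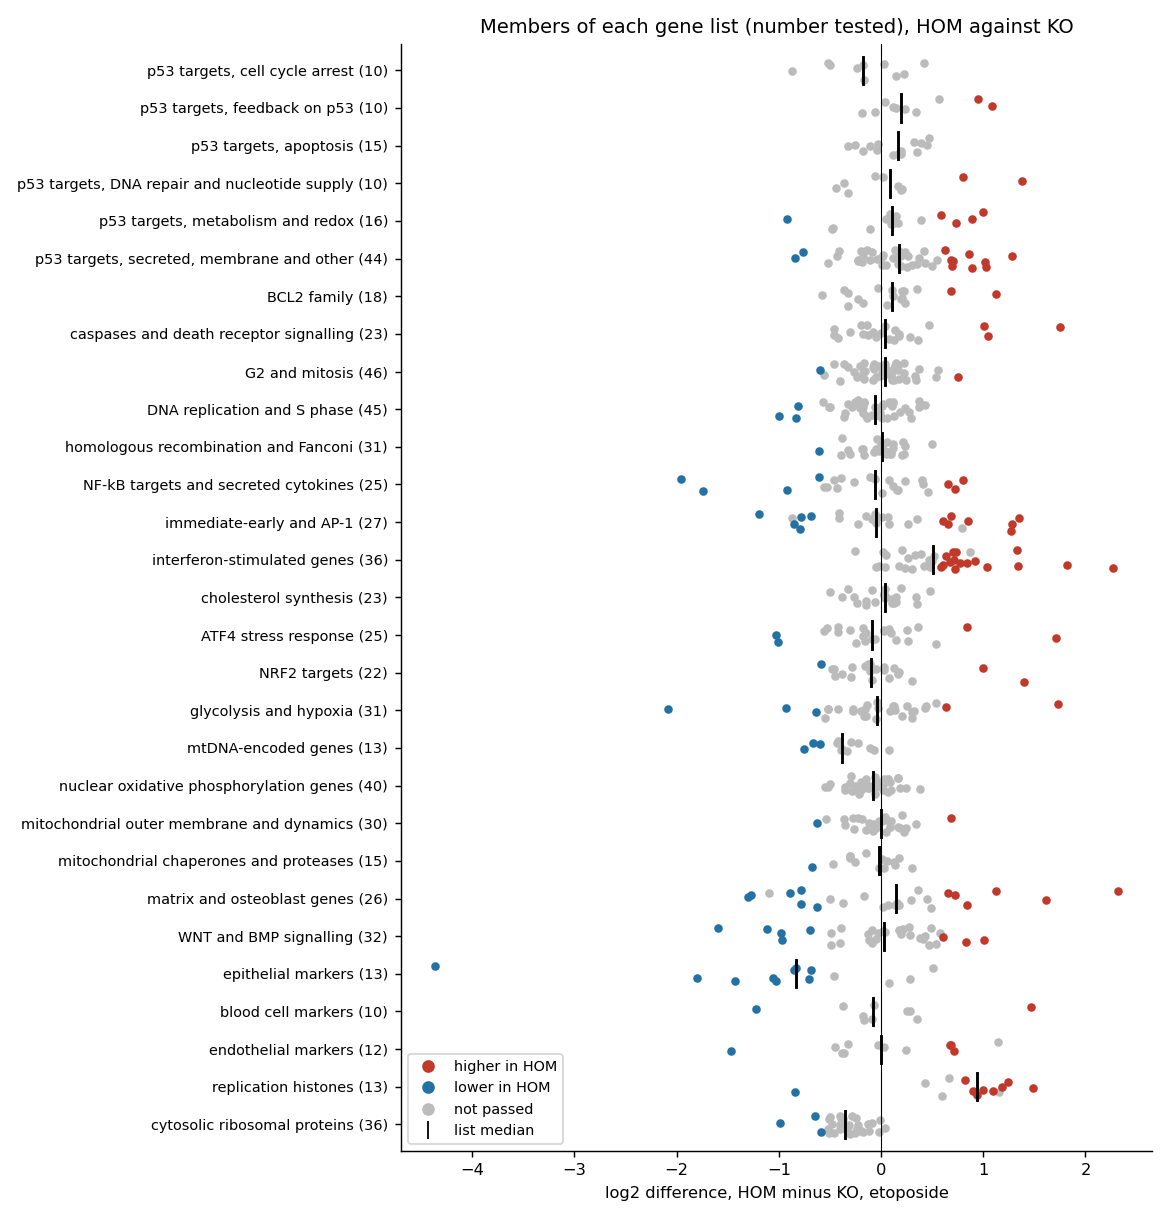
Log2 difference of HOM minus KO with etoposide for each tested member of 29 gene lists (number tested in parentheses), coloured by whether the gene passed the test; black marks give list medians. Most lists centre near 0, while interferon-stimulated genes and replication histones lie above it and epithelial markers below it, and mtDNA-encoded genes and cytosolic ribosomal proteins have medians of -0.38 and -0.35 (0 and -0.07 after quantile normalization).

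Of 18 BCL2 family genes, 2 were higher in HOM cells (11.1%, near the 9.87% of all genes) and none lower. BCL2A1, an anti-apoptotic member, had 29.28, 35.71, 21.47 and 13.61 in HOM cells, against 9.219, 10.42, 10.55 and 10.93 in KO cells (1.13 ± 0.23, adjusted p 0.000556), with WT cells at 152.4 ± 24.1. BMF, a pro-apoptotic BH3-only protein, was higher by 0.69 ± 0.095 (adjusted p 1.16e-05). Of 23 caspase and death receptor genes 3 were higher (13%) and none lower, also near that share. CASP1, the inflammatory caspase, had 170.2, 173.7, 164.9 and 134.4 in HOM cells, against 47.94, 53.83, 41.4 and 44.56 in KO cells. HOM library 4 was the lowest of its group, and all HOM libraries lay above KO (1.75 ± 0.12, adjusted p 1.25e-09). CASP10, an initiator caspase of death receptors, was higher by 1.05 ± 0.15 (adjusted p 1.41e-05) and ENDOG, a mitochondrial nuclease released in apoptosis, had 425.8, 429.3, 437.2 and 483 in HOM cells, against 271, 231.8, 205.4 and 179.9 in KO cells (1.01 ± 0.12, adjusted p 1.15e-06).

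None of 40 nuclear genes of oxidative phosphorylation passed (3 and 15 had an unadjusted p under 0.05 with HOM higher and lower, in limma). Of 30 genes listed for the outer membrane and mitochondrial dynamics, 1 was higher and 1 lower (3.33% each, with 9.87% and 5.70% of all genes). Neither of them encodes an outer membrane protein. SLC25A4, the adenine nucleotide carrier of muscle and heart, was higher (0.69 ± 0.063, adjusted p 6.96e-08). CHCHD3, of the cristae-organizing MICOS complex, was lower at -0.63 ± 0.10, a call that ended without HOM library 4 or KO library 1 (-0.56 and -0.57). Of 15 mitochondrial chaperones and proteases, 1 was lower (6.67%, near the 5.70% of all genes). It was the HSP40 protein DNAJA3, with 544.5, 553.5, 525.4 and 555.3 in HOM cells, against 899.8, 900.4, 900.3 and 783.5 in KO cells (-0.67 ± 0.058, adjusted p 3.54e-08). The 13 mtDNA-encoded genes took 9.63% ± 0.468 of the counts in HOM and 10.6% ± 1.41 in KO cells (SD, n = 4 each). The difference in this share was within the spread of the replicates (two-sided exact permutation test, p = 0.257, smallest possible p 0.0286). It was -1.01 percentage points, and -0.419 without KO library 1. Of the 13 genes, 3 were lower (23.1%, with 5.70% of all genes) and none higher, 1 had a log2 difference above 0, and the median was -0.38. The 3 lower genes were MT-ND2, MT-ND3 and MT-ATP8 (-0.66 ± 0.15, -0.75 ± 0.15 and -0.59 ± 0.19). None of the 3 passed after quantile normalization, where the median was 0. The call of MT-ND2 ended without KO library 1 (-0.54), and that of MT-ATP8 without HOM library 1 or 4 or KO library 1 or 2 (-0.58, -0.58, -0.43 and -0.50).

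Interferon-stimulated genes that passed were all higher in HOM cells. Of 36 tested, 16 passed with HOM higher (44.4%, with 9.87% of all genes) and none with HOM lower, 33 had a log2 difference above 0, and the median was 0.51. In 22 of the 36 all HOM libraries lay above all KO libraries (18.7% of all genes did), and in none below. Under other scalings and the deposited values the median was 0.37 to 0.65 and 14 to 20 members were higher, and a fit over all 32 libraries gave 11. WT cells were higher than the same KO cells in 11 and lower in 7 (16.8% and 13.5% of all genes were), with a median of 0.06. These genes encode antiviral effectors and sensors that interferon induces.

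IFITM1, a membrane protein that blocks virus entry, had 87.06, 88.46, 116.6 and 142 in HOM cells, against 22.13, 21.71, 21.11 and 20.18 in KO cells. The lowest HOM library was far above the highest KO library (2.27 ± 0.21, adjusted p 8.44e-08), and WT cells had 22.92 ± 3.24. OAS2, which makes oligoadenylates on double-stranded RNA, had 115.5, 113.6, 128.1 and 131.8 in HOM cells, against 33.19, 31.26, 43.02 and 29.42 in KO cells (1.82 ± 0.13, adjusted p 4.29e-09). BST2, which tethers budding virus, had 56.19, 60.87, 68.26 and 64.63 in HOM cells, against 46.1, 18.23, 24.35 and 15.97 in KO cells. KO library 1 was closest to the HOM range (1.34 ± 0.24, adjusted p 0.000171). ISG15, a ubiquitin-like modifier, had 1861, 2000, 1952 and 2066 in HOM cells, against 690.5, 855.3, 837 and 759.1 in KO cells (1.33 ± 0.084, adjusted p 5.57e-10), and WT cells were higher still at 3339 ± 411.

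**Figure D3:**
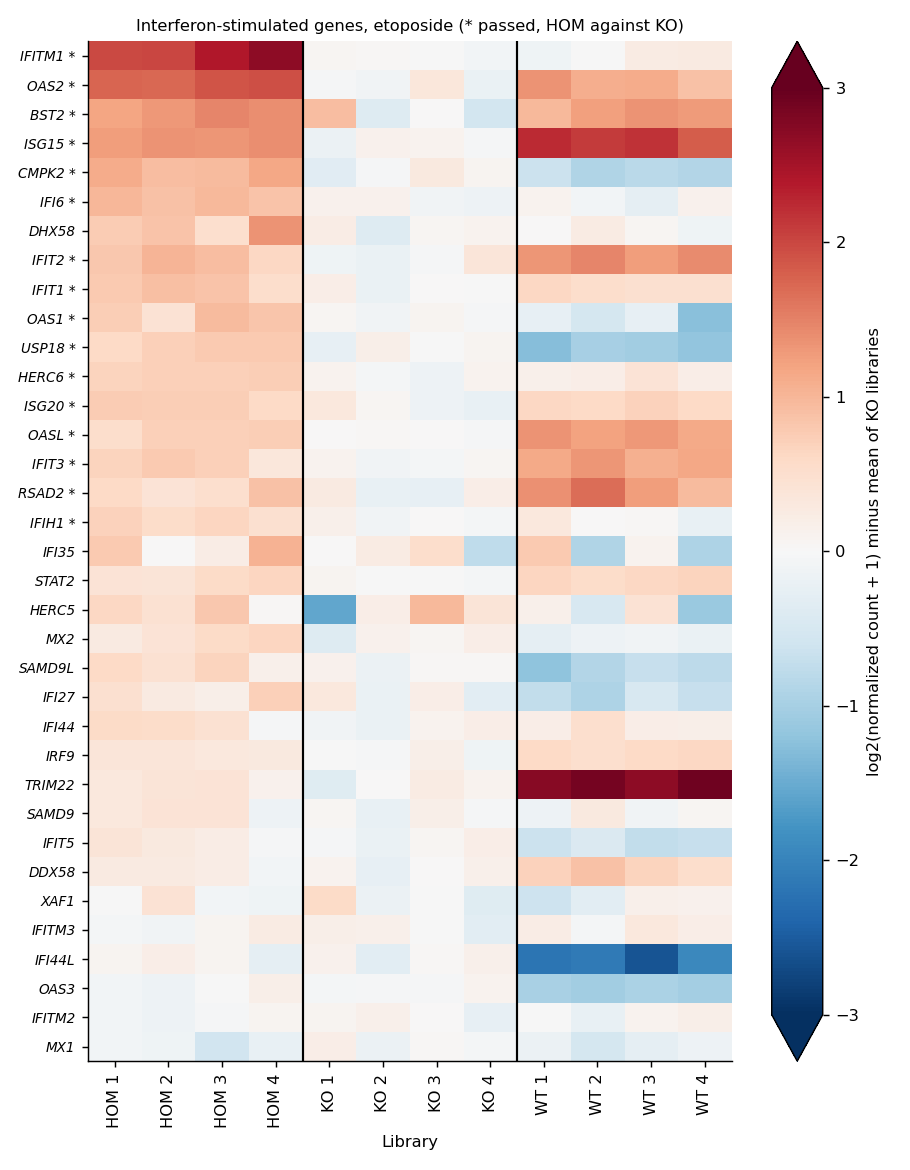
Log2(normalized count + 1) of 35 of the 36 interferon-stimulated genes in the HOM, KO and WT libraries with etoposide, relative to the mean of the KO libraries; red is higher, blue is lower, and a star marks the 16 genes that passed in HOM against KO. The HOM columns are red in most rows, while the WT columns hold both red and blue rows.

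With DMSO and HOM library 1 alone, 3 of these genes were higher and 2 lower in HOM than in KO cells (4.37% and 4.29% of all genes), and with all 4 HOM libraries 9 were higher and 14 lower (22.6% and 28.6% of all genes). With library 1 alone, the difference between the etoposide responses of HOM and KO cells passed with HOM higher in 6 and lower in none (1.07% and 0.779% of all genes). With all 4 HOM DMSO libraries the response difference passed in 19 with HOM higher and 2 with HOM lower (24.4% and 19.3% of all genes). ISG15 had 631.1 normalized counts in HOM library 1 with DMSO, with a KO mean of 593.9. Its response was 1.64 in HOM and 0.41 in KO cells, a difference of 1.24 ± 0.18 (adjusted p 0.000163), or 0.40 and not past the threshold with all 4 HOM DMSO libraries. IFITM1 already differed with DMSO, at 68.14 in HOM library 1 and a mean of 16.45 in KO cells, and its response difference was 0.20 ± 0.45 (adjusted p 0.913).

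Many of the largest differences between HOM and KO cells were in genes with few or no counts in 1 of the 2 genotypes. IGFBP4 (chr17:40443461-40457731, plus strand), a secreted binding protein of insulin-like growth factors, had 2042, 1946, 2190 and 2433 in HOM cells, against 20.28, 3.473, 8.118 and 4.203 in KO cells. All HOM libraries lay far above the KO libraries (8.03 ± 0.31, adjusted p 5.87e-13), while WT cells had 1710 ± 116. DLX4, a homeobox transcription factor, had 213.7, 214.3, 246.2 and 284.9 in HOM cells, against 0, 2.605, 0 and 0.8407 in KO cells (7.22 ± 0.32, adjusted p 3.98e-12, with 4 KO counts in all). TCEAL7, a regulator related to elongation factor A, had 115.5, 128.2, 125 and 93.54 in HOM cells, against 0, 0.8683, 0.8118 and 0 in KO cells, the KO values coming from 2 recovered counts, so no fold is given. NMB, the peptide neuromedin B, had 466.9, 437.4, 443.3 and 419.2 in HOM cells, against 13.83, 1.737, 8.93 and 3.363 in KO cells (6.09 ± 0.33, adjusted p 5.88e-11). EPOP, a partner of Polycomb complex 2 and elongin, differed by 6.02 ± 0.40 and the homeobox gene HOXB2 by 4.85 ± 0.17, with adjusted p of 9.65e-10 and 2.29e-13. SLC38A3, a glutamine transporter, differed by 5.05 ± 0.16, the metalloproteinase ADAMTS7 by 4.30 ± 0.20 and the insulin-like peptide INSL4 by 4.25 ± 0.26, with adjusted p of 7.36e-14, 6.28e-12 and 4.44e-10.

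The cancer-testis genes CT45A1 (5.09 ± 0.23) and SPANXC (4.63 ± 0.30) and the receptor transporter RTP3 (4.73 ± 0.43) made up the rest, with adjusted p of 5.36e-12, 7.25e-10 and 6.2e-08. CT45A1 and SPANXC belong to families of near-identical copies on the X chromosome, so their counts may be split among copies. Of the 12, WT cells had a lower mean than HOM cells in 11, and ADAMTS7 had a mean of 154.8 in HOM cells, against 282.7 ± 38.9 in WT cells.

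The largest falls began with SERPINB5 (chr18:63476761-63505085), the serpin maspin, which had 0, 6.492, 2.301 and 1.701 in HOM cells, against 224, 175.4, 210.3 and 220.3 in KO cells. HOM cells held 13 recovered counts in all and KO cells 966 (-6.18 ± 0.37, adjusted p 2.92e-10), and WT cells had 380.2 ± 38. H2AFJ (chr12:14774383-14778002), a histone H2A variant, had 2.374, 9.739, 5.369 and 4.252 in HOM cells, against 290.4, 307.4, 268.7 and 237.9 in KO cells (-5.55 ± 0.22, adjusted p 1.07e-12). MFAP5, a microfibril protein of the matrix, had 7.123, 18.67, 14.57 and 12.76 in HOM cells, against 486.8, 477.6, 537.4 and 517.9 in KO cells (-5.21 ± 0.18, adjusted p 1.59e-13). KRT14, a keratin of basal epithelium, had 33.24, 38.14, 33.75 and 34.86 in HOM cells, against 767, 829.2, 763.1 and 617.9 in KO cells. Its 4 HOM libraries lay within a few counts of one another (-4.37 ± 0.10, adjusted p 2.8e-16). MISP, an actin-bundling protein of the spindle, differed by -4.12 ± 0.088 and GLMP, a lysosomal membrane protein, by -4.12 ± 0.15, with adjusted p of 2.01e-16 and 2.89e-13. The zinc finger genes ZNF597 and ZNF300 differed by -4.83 ± 0.31 and -4.08 ± 0.18, with 5 and 14 recovered HOM counts. ANXA8L1 (-3.17 ± 0.12), the cancer-testis gene PAGE2B (-3.10 ± 0.15) and SCEL (-3.0 ± 0.38), a cornified envelope protein, followed. ZACN, a zinc-activated channel, varied widely in both groups, with 166.2, 20.29, 3.835 and 115.6 in HOM cells, against 760.6, 212.7, 570.7 and 271.5 in KO cells (-3.41 ± 0.83, adjusted p 0.00256).

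**Figure D4:**
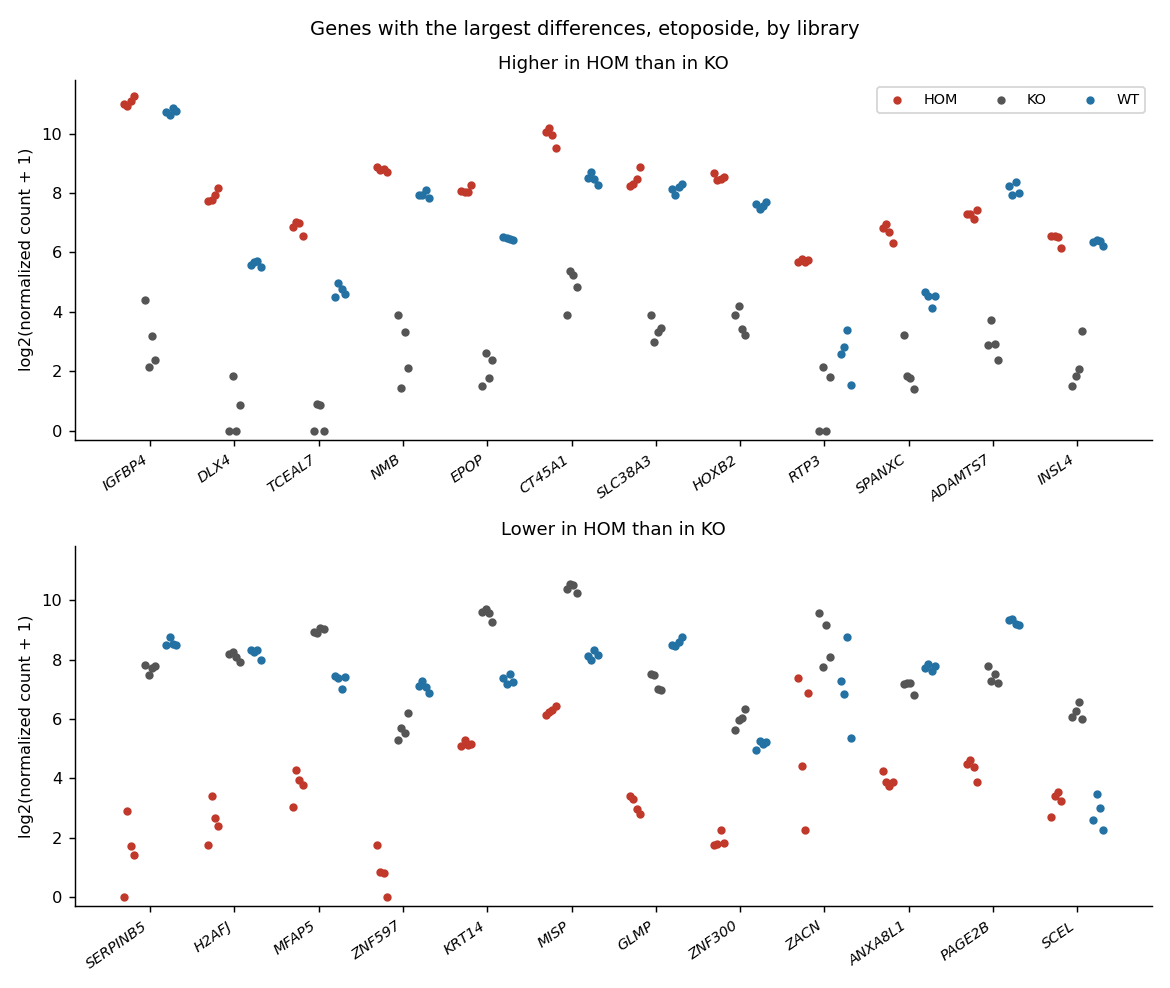
Log2(normalized count + 1) in each library with etoposide of the 12 genes with the largest rises (top) and the 12 with the largest falls (bottom) in HOM against KO, for HOM, KO and WT cells. The 24 genes were chosen among those whose HOM and KO libraries do not overlap. The WT points lie nearer to HOM for IGFBP4 and nearer to KO for H2AFJ.

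Most of these 24 genes also differed without etoposide. With DMSO, and HOM library 1 alone, 736 genes were higher (4.37%) and 721 lower (4.29%) in HOM than in KO cells. All 4 HOM DMSO libraries gave 3797 (22.6%) and 4812 (28.6%). With library 1 alone, 11 of the 12 largest rises and 10 of the 12 largest falls passed in the same direction, INSL4, ZACN and SCEL being the others. IGFBP4 had 3653, 3530, 3448 and 3761 normalized counts in the 4 HOM libraries with DMSO, against a mean of 2.074 in KO cells. H2AFJ had 13.63, 5.975, 14.02 and 23.36, against a mean of 459.8. Of the 1623 genes higher with etoposide, 458 were also called higher with DMSO, which is 28.2% of the etoposide calls and 62.2% of the DMSO calls, and 8 were called lower. Of the 938 lower genes, 382 were also lower with DMSO (40.7% of the etoposide calls and 53% of the DMSO calls) and 3 were higher. With all 4 HOM DMSO libraries, 774 of the 1623 were also higher with DMSO (47.7% of the etoposide and 20.4% of the DMSO calls) and 153 lower, and 467 of the 938 were also lower (49.8% and 9.7%) and 40 higher. With library 1 alone the median difference with DMSO was 0.56 over the 1623 genes and -0.64 over the 938, and with all 4 it was 0.62 and -0.64.

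The difference between the etoposide responses of HOM and KO cells is the measure that removes what was present with DMSO. With HOM DMSO library 1 alone, 180 genes responded with HOM higher (1.07%) and 131 with HOM lower (0.779%); all 4 HOM DMSO libraries gave 4099 (24.4%) and 3245 (19.3%). Of the p53 targets, 6 passed with HOM higher and 3 with HOM lower on library 1 alone, and 38 and 20 with all 4. TP53INP1 changed by 0.48 with etoposide in HOM cells and by -0.65 in KO cells, a difference of 1.13 ± 0.22 (adjusted p 0.00474). ZMAT3 changed by 1.03 in HOM and 0.24 in KO cells (difference 0.80 ± 0.15, adjusted p 0.00304), and ACER2 by 2.35 and 1.13 (difference 1.22 ± 0.30, adjusted p 0.029). Their WT responses were 2.30, 2.15 and 3.29. RRM2B had a difference of 1.26 ± 0.35 that missed the threshold (adjusted p 0.059; 2.86 and past it with all 4). DDB2 had one of 0.55 ± 0.15 (adjusted p 0.0453), under the fold threshold, and -0.13 with all 4. LIF changed by -1.22 in HOM and -0.10 in KO cells (difference -1.12 ± 0.16, adjusted p 0.000109). The direction of TP53INP1, ZMAT3, ACER2 and LIF was the same, and passed, with all 4 HOM DMSO libraries.

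By the naming rule, the largest response differences that passed with and without HOM DMSO libraries 2 to 4 were in DSEL, TCEAL7, INSL4 and PDK4 (HOM higher) and in CSF2, PRF1, MROH6 and TRABD2B (HOM lower). CSF2, the growth factor GM-CSF, had 21.37, 27.59, 26.08 and 21.26 in HOM cells, against 89.42, 90.3, 69 and 82.39 in KO cells with etoposide. With DMSO it had 48.22, 59.75, 33.29 and 48.85 in HOM cells, against a mean of 18.92 in KO cells, so HOM cells were higher with DMSO and lower with etoposide. The response was -0.98 in HOM and 2.07 in KO cells (difference -3.05 ± 0.28, adjusted p 1.12e-07). TRABD2B, a membrane metalloprotease that cuts WNT proteins, had 673, 987.3, 1186 and 1196 in HOM cells with DMSO, against a KO mean of 212.1, and did not pass with etoposide (-0.28 ± 0.15, adjusted p 0.134). Its response difference was -1.95 ± 0.29 (adjusted p 0.000195).

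PRF1, the pore-forming perforin of cytotoxic lymphocytes, and MROH6 had response differences of -2.46 ± 0.56 and -2.02 ± 0.48, with adjusted p of 0.0179 and 0.0236. TCEAL7 had 3.18 ± 0.84 and INSL4 3.0 ± 0.65, sizes that depend on the pseudocount because both were near 0 with DMSO. PDK4, an inhibitory kinase of pyruvate dehydrogenase, had 82.31, 99.82, 78.23 and 62.07 in HOM cells, against 19.36, 16.5, 26.79 and 10.09 in KO cells. Its response difference was 1.81 ± 0.39 (adjusted p 0.0108). MFAP5, one of the largest falls, was lower with etoposide and with DMSO, by less with etoposide (response difference 2.0 ± 0.37, adjusted p 0.00275). DSEL, related to dermatan sulfate epimerases, was at 0 counts in HOM DMSO libraries 1 to 3 and at 33.98 in library 4, against a KO mean of 79.9. With etoposide it had 174.1, 313.3, 279.9 and 133.5 in HOM cells, against 241.5, 217.9, 126.6 and 196.7 in KO cells, with overlapping groups.

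Replication histone genes, whose transcripts mostly lack a poly-A tail and are captured poorly by poly-A selection, were mostly higher in HOM cells. Of 13 tested, 8 were higher (61.5%, with 9.87% of all genes) and 1 lower (7.69%, with 5.70%), and the median was 0.94. Other scalings and the deposited values gave 5 to 10 higher and medians of 0.57 to 1.09. WT cells were higher than the same KO cells in 9 (16.8% of all genes were). With DMSO, where 14 were tested, the median was 0.33 with HOM library 1 alone and 0.51 with all 4 HOM libraries. The 20 listed genes then summed to 9717 to 18720 normalized counts in HOM and 4998 to 5391 in KO cells. The median response difference was 0.45 with library 1 alone and 0.42 with all 4. HIST1H1C, a linker histone, had 1828, 1955, 2056 and 2348 in HOM cells, against 873, 886.5, 928.7 and 769.2 in KO cells (1.24 ± 0.091, adjusted p 4.12e-09), and WT cells had 1976 ± 155. HIST2H2BE was higher by 1.0 ± 0.07, HIST1H2AG by 1.18 ± 0.23 and HIST1H4H by 1.10 ± 0.14, with adjusted p of 2.28e-09, 0.000312 and 2.91e-06. HIST2H2AC was lower, with 23.74, 21.91, 24.54 and 25.51 in HOM cells, against 43.33, 44.28, 44.65 and 42.03 in KO cells (-0.84 ± 0.18, adjusted p 0.00081).

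Immediate-early genes, which signalling induces within minutes, moved both ways: of 27, 7 were higher (25.9%, with 9.87% of all genes) and 5 lower (18.5%, with 5.70%), and the median was -0.05. The nuclear receptor gene NR4A2 had 337.2, 331.9, 322.9 and 305.3 in HOM cells, against 140.1, 127.6, 122.6 and 116.9 in KO cells (1.35 ± 0.083, adjusted p 3.82e-10). NR4A3 was higher by 1.28 ± 0.084, FOSB by 1.27 ± 0.12 and EGR2 by 0.86 ± 0.097, with adjusted p of 9.26e-10, 1.44e-07 and 1.04e-06. MYC was lower, with 1378, 1295, 1363 and 1270 in HOM cells, against 2709, 2382, 2345 and 2161 in KO cells (-0.85 ± 0.067, adjusted p 1.02e-08), and WT cells had 2620 ± 179. Its response to etoposide was -0.10 in HOM and 0.90 in KO cells (difference -1.0 ± 0.16, adjusted p 0.000696; -0.56 and not passed with all 4 HOM DMSO libraries). KLF6, SPRY2 and the AP-1 subunit FOSL1 were lower too (-0.79 ± 0.065, -0.79 ± 0.078 and -0.69 ± 0.11).

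Of 25 NF-kB targets and cytokines, 3 were higher (12%, near the 9.87% of all genes) and 4 lower (16%, with 5.70%). MMP3, a matrix metalloproteinase, had 83.1, 98.2, 67.49 and 79.93 in HOM cells, against 307.9, 296.1, 339.3 and 338.8 in KO cells (-1.96 ± 0.10, adjusted p 3.22e-11), and WT cells had 616.8 ± 32.4. CSF2 differed by -1.74 ± 0.13 and the chemokine CCL2 by -0.61 ± 0.091, the call of CCL2 ending without HOM library 4 or KO library 1 (-0.57 and -0.52). The adhesion molecule ICAM1 was higher (0.72 ± 0.16, adjusted p 0.00122). The call of CXCL3 (0.66 ± 0.22, overlapping groups) ended without HOM library 1 or KO library 1 (0.50 and 0.47).

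Of 26 matrix and osteoblast genes, 6 were higher and 6 lower (23.1% each, with 9.87% and 5.70% of all genes). LUM, the small proteoglycan lumican, had 909.4, 867.6, 912.7 and 528.9 in HOM cells, against 152.1, 121.6, 162.4 and 199.2 in KO cells (2.32 ± 0.16, adjusted p 2.35e-09). COL3A1, a fibrillar collagen, had 6070, 6481, 6366 and 7020 in HOM cells, against 2068, 2005, 2077 and 2323 in KO cells. The groups lay far apart relative to their spread (1.61 ± 0.056, adjusted p 1.65e-13). Osteopontin (SPP1) was higher by 1.13 ± 0.12 and COL6A3 by 0.84 ± 0.069, with adjusted p of 3.84e-07 and 1.69e-08. The basement membrane collagens COL4A1 and COL4A2, a gene pair on chromosome 13, were lower. COL4A1 had 928.4, 927.6, 896.6 and 1040 in HOM cells, against 2190, 2113, 2292 and 2577 in KO cells (-1.27 ± 0.06, adjusted p 1.01e-11), and COL4A2 differed by -1.30 ± 0.084. Alkaline phosphatase (ALPL) differed by -0.79 ± 0.13 (adjusted p 8.74e-05), and the call of BGN ended without HOM library 1 or KO library 1 (-0.58 and -0.73).

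Epithelial markers, which an osteosarcoma line is not defined by but which KO cells held, were mostly lower. Of 20 listed, 13 passed the filter on low values, and of these 9 were lower (69.2%, with 5.70% of all genes) and none higher. The 20 listed markers summed to 14050 to 16700 normalized counts in HOM, against 26720 to 32610 in KO and 42230 to 50610 in WT cells. Since the filter keeps genes present in any 4 etoposide libraries, the count of lower markers covers only expressed members. KRT8, a keratin of simple epithelia, had 2434, 2522, 2696 and 2997 in HOM cells, against 9988, 9883, 9345 and 8028 in KO cells (-1.80 ± 0.08, adjusted p 3.98e-12). KRT17 had 4848, 4937, 4813 and 5494 in HOM cells, against 10750, 11060, 10800 and 9227 in KO cells (-1.06 ± 0.074, adjusted p 2.22e-09), and WT cells had 28180 ± 2468. The adhesion molecule EPCAM differed by -1.43 ± 0.23 (adjusted p 4.72e-05). With DMSO, where 14 were tested, the median difference was -0.67 with HOM library 1 alone and -0.35 with all 4 HOM libraries. With all 4, 5 of the markers were lower and 3 higher (28.6% and 22.6% of all genes were). The part of these markers in the other differences was not tested.

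Among 12 endothelial markers, 3 were higher (25%, with 9.87% of all genes) and 1 lower (8.33%, with 5.70%). Of 10 blood cell markers 1 changed each way (10% each). ROBO4, an endothelial guidance receptor, had 53.82, 36.52, 44.48 and 45.92 in HOM cells, against 180.7, 132, 94.98 and 108.4 in KO cells (-1.46 ± 0.17, adjusted p 2.04e-06). EGFL7, a secreted vascular protein, was higher by 0.69 ± 0.085 (adjusted p 3.29e-06). The growth factor receptor genes KDR and TEK were the others (0.71 ± 0.26 and 0.67 ± 0.20), TEK losing its call without KO library 1 (0.49) and KDR without any 1 of HOM libraries 1 to 4 or KO library 1 or 4 (0.55 to 0.74). The T-cell coreceptor gene CD8A had 123.5, 124.2, 131.1 and 122.4 in HOM cells, against 47.02, 47.76, 38.97 and 45.4 in KO cells (1.47 ± 0.13, adjusted p 3.18e-08), and the macrophage receptor gene CSF1R differed by -1.23 ± 0.11.

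Of 32 WNT and BMP genes, 3 were higher (9.38%, near the 9.87% of all genes) and 5 lower (15.6%, with 5.70%). LGR5, a receptor of R-spondins, had 32.45, 53.56, 59.06 and 55.27 in HOM cells, against 160.4, 143.3, 154.2 and 141.2 in KO cells (-1.59 ± 0.19, adjusted p 1.89e-06). NOG, the BMP antagonist noggin, had 307.1, 292.2, 289.9 and 326.5 in HOM cells, against 582.6, 600, 593.4 and 622.1 in KO cells (-0.98 ± 0.078, adjusted p 1.15e-08). With DMSO it had 1257 in HOM library 1 and a KO mean of 791.1, and its response difference was -1.65 ± 0.14 (adjusted p 2.5e-08). The WNT receptor gene FZD8 was higher by 1.01 ± 0.09 and the ligand WNT5A by 0.84 ± 0.076, with adjusted p of 5.73e-08 and 6.48e-08, while WNT5B (-0.97 ± 0.13) and the BMP and WNT antagonist SOSTDC1 (-1.11 ± 0.22) were lower.

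Stress and metabolic programmes gave single genes rather than groups. Of 25 ATF4 targets, 2 were higher and 2 lower (8% each, with 9.87% and 5.70% of all genes). CTH, which makes cysteine from cystathionine, had 538.2, 512.9, 511.6 and 496.6 in HOM cells, against 127.2, 184.9, 162.4 and 158 in KO cells (1.71 ± 0.096, adjusted p 1.1e-10). The hormone FGF21 (-1.03 ± 0.20) and the stress factor NUPR1 (-1.01 ± 0.10) were lower. Of 22 NRF2 targets, 2 were higher and 1 lower (9.09% and 4.55%, near the 9.87% and 5.70% of all genes). AKR1C3 and HMOX1 were higher (1.40 ± 0.11 and 1.0 ± 0.073) and ferritin heavy chain (FTH1) lower, at -0.59 ± 0.095. The call of FTH1 ended without HOM library 1, 2 or 3 or KO library 1 or 2 (-0.58 to -0.51). Of 31 glycolysis and hypoxia genes, 2 were higher (6.45%, with 9.87% of all genes) and 3 lower (9.68%, with 5.70%). The aldolase gene ALDOC had 792.2, 794.5, 875.9 and 947.3 in HOM cells, against 261.8, 262.2, 256.5 and 240.4 in KO cells (1.73 ± 0.081, adjusted p 8.37e-12). CA9, a carbonic anhydrase induced by hypoxia, had 20.58, 18.67, 34.51 and 32.31 in HOM cells, against 90.35, 144.1, 117.7 and 101.7 in KO cells (-2.08 ± 0.31, adjusted p 2.43e-05). GAPDH had 115500, 124500, 129500 and 149500 in HOM cells, against 261500, 260500, 252200 and 214700 in KO cells (-0.93 ± 0.10, adjusted p 8.45e-07); after quantile normalization the difference was -0.43 and did not pass. None of 23 cholesterol synthesis genes passed (3 and 6 had an unadjusted p under 0.05 with HOM higher and lower, in limma).

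Of 36 cytosolic ribosomal protein genes, 3 were lower (8.33%, with 5.70% of all genes) and none higher, with a median of -0.35 and 1 of 36 above 0. The median was -0.07, with 1 lower, after quantile normalization and -0.20 with scaling by library totals, where none passed. RPS14 had 7606, 8297, 7120 and 8035 in HOM cells, against 12790, 13250, 11800 and 10860 in KO cells (-0.65 ± 0.075, adjusted p 1.5e-06), and RPL11 differed by -0.59 ± 0.10, its call ending without HOM library 3 or 4 or KO library 1 (-0.57, -0.54 and -0.51). RPS9 ranged widely among KO libraries, 1724, 933.4, 490.3 and 525.4, and its call (-0.99) ended without HOM library 1, 2 or 3 or KO library 1 or 2 (-1.0, -0.90, -1.03, -0.62 and -0.92).

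Differences were also uneven along the genome. On chromosome 13, 135 of 256 tested genes were lower in HOM than in KO cells and 6 were higher, with a median log2 difference of -0.69. The other chromosomes had medians of -0.14 (chromosome 16) to 0.25 (chromosome 15). Genes on chromosome 13 were 14.4% of all lower calls and 1.56% of tested genes. With DMSO and HOM library 1 alone the chromosome 13 median was -0.76. Against WT cells with etoposide the HOM median on chromosome 13 was -0.59, and WT against the same KO cells gave -0.07. In windows of 10 Mb with at least 20 tested genes, 214 of 266 windows had a median within 0.2 of 0. The 6 lowest were all on chromosome 13, down to -1.01 at 90 to 100 Mb. High windows were at 50 to 60 Mb and 60 to 70 Mb of chromosome 3 (0.50 and 0.58), at 80 to 90 Mb of chromosome 4 (0.48) and at 80 to 90 Mb of chromosome 15 (0.45). H2AFJ lies in a chromosome 12 window (10 to 20 Mb) with a median of -0.44, and MFAP5, WNT5B and GAPDH in the window before it (-0.36). CHAF1A and UHRF1 lie in a chromosome 19 window with a median of -0.33. SCEL and SPRY2 lie on chromosome 13, SLC38A3 and WNT5A in the first of the 2 high chromosome 3 windows and KBTBD8 in the second. SPP1 lies in the high chromosome 4 window, and NMB and AEN lie in that of chromosome 15. RPS27L lies at 60 to 70 Mb of chromosome 15 (median 0.23), and FBXO22 and BCL2A1 lie on the same chromosome. ZNF79, NOTCH1 and ENDOG lie on chromosome 9, where the windows from 110 to 140 Mb had medians of 0.39, 0.32 and 0.33. CYFIP2 lies on chromosome 5, where the window at 150 to 160 Mb had a median of -0.355. Copy number was not measured here, and its part in these differences was not tested.

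**Figure D5:**
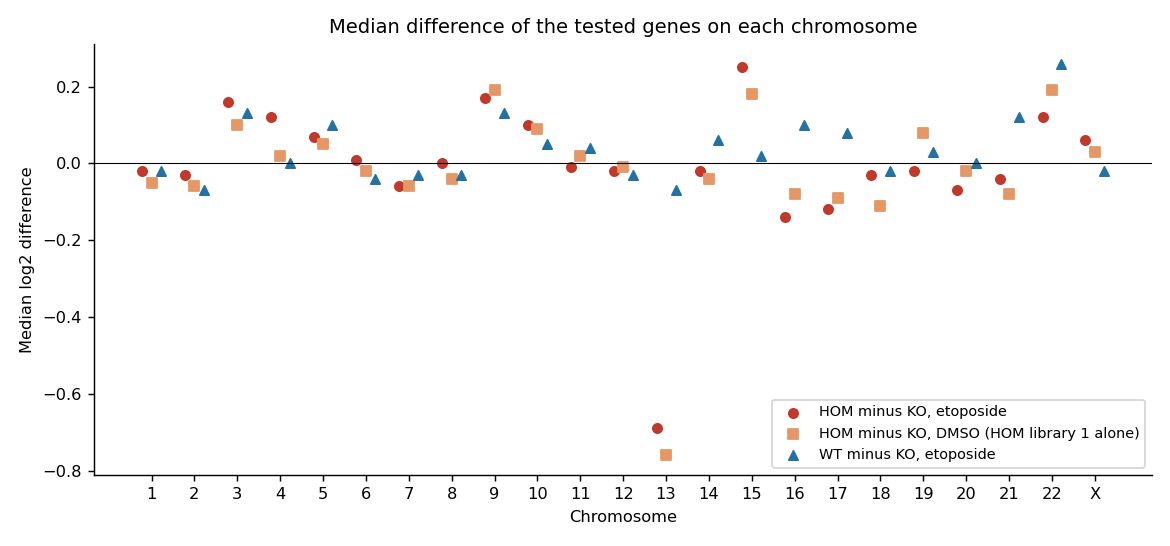
Median log2 difference of the tested genes on each chromosome, for HOM minus KO with etoposide, HOM minus KO with DMSO (HOM library 1 alone) and WT minus KO with etoposide. Chromosome 13 is at -0.69 and -0.76 in HOM minus KO and at -0.07 in WT minus KO.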

How the data were processed

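RNA-seq of U2OS cells was deposited as a matrix of 32 libraries (4 genotypes, DMSO or etoposide, 4 plates each) and tables of comparisons. Per the submitters' processing notes, reads were processed with kallisto and DESeq2 on GRCh38/hg38; their versions are not given in the sources used here. Values in the deposited matrix are variance-stabilized log2 values with a floor of 4.43. Inverting that transformation of the authors gave normalized counts whose means equal those in the authors' deposited tables (a deposited signal value), within a relative 4.4e-14, and whole counts for 100.0% of values within 0.01. The deposited tables also hold a test statistic (a score), p-values and log2 fold changes made by the authors; these were used for a comparison in the closing section, and the score was not. No column belonged to an unknown sample.

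Log2(normalized count + 1) was fitted with limma 3.58.1 (R 4.3.3, empirical Bayes with a mean trend, 2-sided moderated test, Benjamini-Hochberg adjustment) on the 16 etoposide libraries, keeping genes that reached 10 normalized counts in 4 or more of them. DMSO values and responses came from a fit of all 32 libraries (16824 genes). Calls needed an adjusted p below 0.05 and a fold change of 1.5 or more; fold changes on this scale understate those of low genes. The script was tested on simulated data. Counts from sequenced reads without molecular identifiers are not independent molecules, so floors cover counting error only. Genes were placed with GENCODE 29 positions on GRCh38 (35403 symbols by name, 75 by a newer symbol, 109 unmatched). Replicate numbers did not pair the libraries: the deviations of same-numbered HOM and KO libraries had correlations of -0.136 to 0.0125.

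The comparison, the gene lists and the naming rule were chosen with earlier results of these data known. The rule names 8 known targets, the 12 largest rises and falls without overlap and with a mean of at least 50, up to 4 members a direction in each list with a mean of at least 20, the 4 largest response differences a side, and 8 WT-induced genes a side. GLS2, ABCA12, INPP5D, TREM2, NOTCH1, FBXO22, WDR63, AEN and FDXR, and the other promoter matches, were named after their values were seen. HET libraries entered the fit only. A few genes under this rule are left out of the text.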

Additional observations from a re-analysis of the deposited data

Results flagged for a closer look

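In 10 of 108 groups of 4 values examined, 1 library stood far from the other 3 relative to the range of the group, and chance alone sets about 1 in 20 such groups apart. Among the HOM libraries with etoposide, library 4 was the one set apart in 5 of them, with 204.9 normalized counts for FAS, 304.4 for EPOP, 69.73 for INSL4, 0.8503 for TREM2 and 1498 for NOTCH1. HOM library 3 had 3.835 for ZNF300. Among the KO libraries, library 1 had 8.297 for SPANXC and 33.19 for ACER2, and library 4 had 111.0 for ANXA8L1 and 0.8407 for TREM2. The TREM2 values are 0 to 2 counts a library. Leaving the library out ended the call of NOTCH1 (0.58 without HOM library 4) and of none of the other called genes named here, TREM2 included.

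A second set was picked out because the change with etoposide differed between HOM and KO cells by the test of that difference, with and without HOM DMSO libraries 2 to 4. Without them the log2 differences in response, HOM minus KO, were 1.133 for TP53INP1, 0.7978 for ZMAT3, 1.218 for ACER2 and -1.124 for LIF. Outside the p53 targets they were 3.184 for TCEAL7, 3.001 for INSL4, 1.998 for MFAP5, 6.41 for DSEL and 1.813 for PDK4 with HOM higher. They were -3.05 for CSF2, -1.945 for TRABD2B, -2.459 for PRF1 and -2.015 for MROH6 with HOM lower. These rest on 1 HOM library with DMSO, and the size for DSEL, at 0 counts there, depends on the pseudocount.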

How the results depend on the processing

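HOM against KO with etoposide gave 1005 higher genes when a mean of at least 50 was required, which tests fewer genes, and 867 with the variance-stabilized values as deposited. The lower genes numbered 588 with total-count scaling and 600 with the variance-stabilized values. The other alternatives stayed within 1.5 times of the 1623 and 938 (1678 and 965 with limma-voom, 1241 and 776 over all 32 libraries, 1490 to 1647 and 895 to 1004 leaving out 1 library). The replicate number as a block gave 1604 higher and 939 lower genes. Without chromosome 13 genes, an alternative added after seeing the data, 1617 were higher and 803 lower, and without HET library 2, added likewise, 1636 and 949. Total-count scaling gave 4054 higher and 1721 lower genes in HOM against WT. In DMSO, 736 genes were higher and 721 lower without HOM libraries 2 to 4, and 2179 were lower with the compared groups alone. Response differences with HOM higher numbered 180 without HOM DMSO libraries 2 to 4, 2564 after quantile normalization and 2148 with the compared groups alone. Those with HOM lower numbered 131 without the 3 libraries and 2114 to 4224 leaving out 1 library, the lowest without HOM DMSO library 4. The cause of these changes was not tested beyond the number of genes or libraries used. Of the 136 named genes with a call, 36 lost it under at least 1 alternative and 0 reversed; 22 calls were lost with the variance-stabilized values, 19 after quantile normalization and 16 without KO library 1. Depth limits the genes under about 3 counts a library, such as TREM2 and TCEAL7 in KO cells.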

Other observations

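Levels in HET cells, which carry 1 mutant and 1 wild-type allele, belong to no comparison above and are given as values with etoposide for genes that differed most between HOM and KO cells. IGFBP4 had 7.62, 10.25, 9.738 and 10.24 normalized counts in the 4 HET libraries, a level near that of KO cells. H2AFJ had 246.4, 244, 215 and 223.7, and SERPINB5 had 17.78, 22.55, 17.04 and 13.39. NMB had 377.6, 326, 349.7 and 341.9 and KRT14 132.9, 116.9, 121.7 and 128.4. Of the p53 targets that passed, RRM2B had 3858, 3816, 3256 and 3786 and ZMAT3 2547, 2526, 2590 and 2667 in HET cells, and IFITM1, the interferon-stimulated gene with the largest difference, had 5.927, 4.101, 8.115 and 7.878. HET library 2 held 8.051 M counts, so its low values are less precise.

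In the authors' deposited table of HOM against KO with etoposide, 18836 genes had an adjusted p, of which 1428 were higher and 902 lower in HOM cells by the thresholds used here. The authors' deposited table and the limma fit shared 1370 higher and 852 lower calls, with 0 opposite calls. These are 84.4% and 90.8% of the limma calls and 95.9% and 94.5% of those in the authors' deposited table.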
